A study of Mus musculus with 4 samples.

Results

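Fatty acids reach the hepatocyte by a series of handover steps. Lipoprotein lipase frees them from circulating triglyceride, membrane proteins such as CD36 and the fatty acid transport proteins (FATPs, Slc27a genes) move them into the cell, and small cytosolic fatty acid binding proteins (FABPs) carry them onward to oxidation, esterification or nuclear receptors. In the liver the main FABP is FABP1, and the other FABPs are known mostly from muscle, adipocytes, macrophages, skin and brain. The genes followed here were 10 of the 30439 genes or transcripts on the array, chosen by symbol: Cd36, Lpl, Slc27a2, Slc27a4, Fabp1, Fabp2, Fabp3, Fabp4, Fabp5 and Fabp7. They were read from 12 probes, with 2 probes for Lpl and for Fabp3 and 1 for each of the others.

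Liver RNA of male C57BL/6J mice was measured on 4 one-colour Agilent arrays, with 2 genotypes in 2 feeding states and 1 array per group. Drp1LiKO livers lack Drp1, the dynamin-related GTPase of mitochondrial fission that is encoded by Dnm1l, through a Cre transgene driven by the albumin promoter on a Drp1 flox/flox background. An albumin-driven Cre acts in hepatocytes, and which other cells of the liver keep the gene was not measured here. Control (Cont) livers came from Drp1 flox/flox littermates without the transgene, which the labels call wild type. All mice had received a high-fat diet (HFD) for 24 weeks, begun at 4 weeks of age by the study's methods. The refed mice were fasted for 17 h and then refed for 4 h. The labels of the other Cont and Drp1LiKO livers give no feeding state, and these livers are called fasted here from the study's description, so each value called fasted rests on that reading.

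Each level below is a probe's log2 signal minus the log2 of the 75th percentile over the gene spots, and each difference is between 2 such levels. Every group is 1 array, so no test exists within a comparison. The error given is the measurement SE of the scanner's error model, which leaves out differences between animals. A gene was called when it differed by at least 2-fold and its brighter signal was well above background. Where the dimmer signal was not well above background, the fold is a lower bound. Levels of different probes cannot be set against each other.

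This 75th percentile differed between genotypes, at 461 (Cont) against 722 (Drp1LiKO) when fasted and 357 against 526 when refed. The 7 spike-in control probes that were above background on every array did not follow it: their mean log2 signal was 12.18 and 12.02 after fasting and 12.28 and 12.29 after refeeding. Scaling to the spike-ins, an alternative added after the data had been seen, moved the median of all genes by 0.79 in the fasted and 0.54 in the refed genotype comparison, and by -0.49 in the Cont and -0.74 in the Drp1LiKO refeeding comparison. It moves every gene of a comparison by the same amount. With it, 93.7% of the genes called between the fasted livers were higher in Drp1LiKO, against 48% with the 75th percentile. After refeeding these shares were 82.6% and 39.3%. Of the genes called between refed and fasted livers, 16.1% against 50.3% were higher after refeeding in Cont and 5.15% against 49.1% in Drp1LiKO. The values of the 10 genes are therefore given relative to the bulk of the genes on the same array, and directions that turn under another scaling are named. Dnm1l itself had levels of 1.10 (Cont) and 0.91 (Drp1LiKO) after fasting and of 0.76 and 0.65 after refeeding. The genotype differences were -0.19 (SE 0.20) and -0.11 (SE 0.20). The deleted exons are not named in the labels, so this probe does not check the genotype. The 9 hepatocyte markers represented were detected well above background throughout.

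The 10 genes fell into groups by direction. After fasting, Cd36 and Lpl, which work at the cell surface, were higher in the Drp1LiKO liver by 0.80 and 0.94. Fabp5 and Fabp7 were higher by 0.41 and 0.44. The hepatocyte genes Fabp1, Fabp2 and Slc27a2 and the more widely expressed Slc27a4 were lower by 0.40 to 0.61, although with the spike-ins all of these 4 were higher. After quantile normalization Fabp1 was at 0.02, Slc27a2 at -0.075, Fabp2 at -0.20 and Slc27a4 at -0.46. After refeeding, Lpl, Fabp5 and Fabp7 were 2.36-fold to 2.75-fold higher in Drp1LiKO, and Cd36 was higher by 0.45. Fabp1, Fabp2, Slc27a2 and Slc27a4 were lower by 0.56 to 0.87. Fabp4 differed by 0.03 and 0.31. Fabp3 stood apart, with its highest signal in the fasted Cont liver and a signal not well above background in the refed Cont liver.

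**Figure D1:**
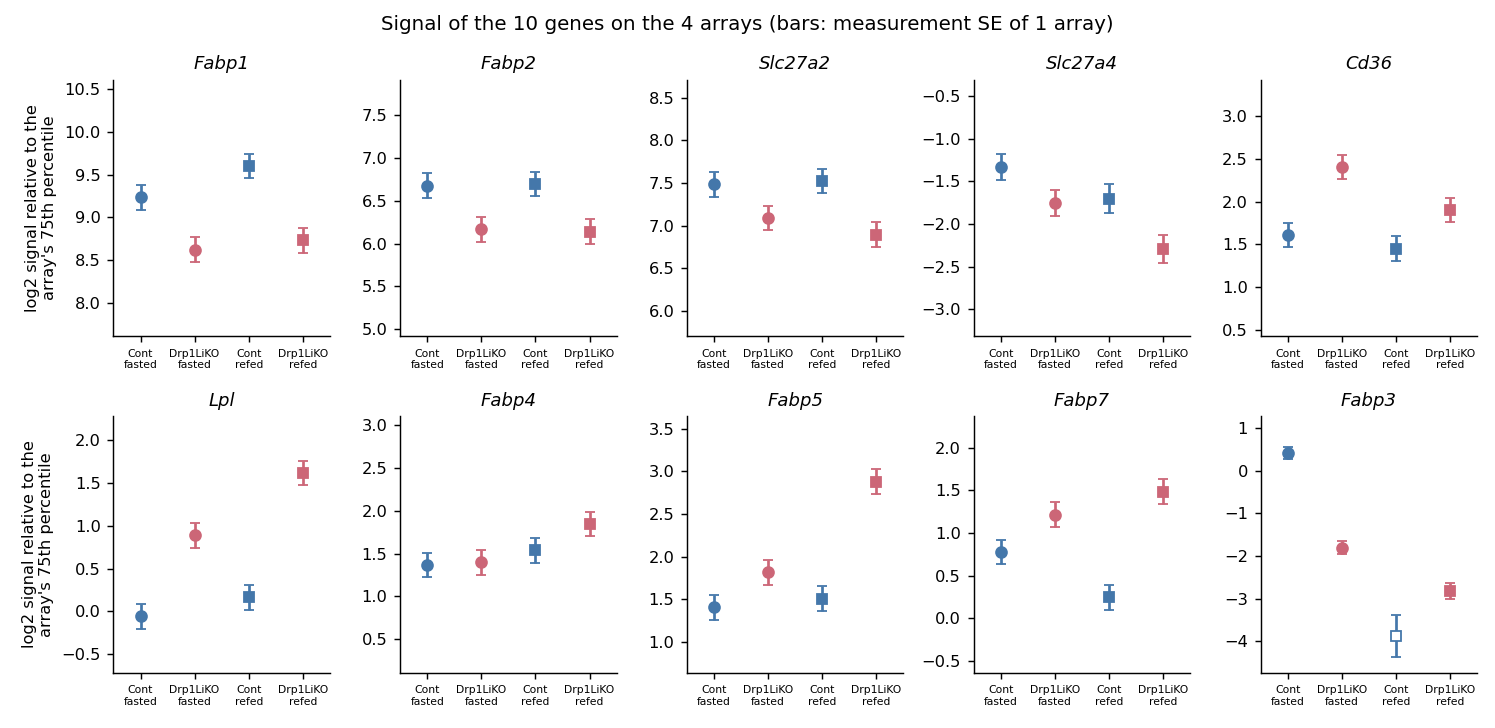
Levels of the 10 genes on the 4 arrays, in log2 units relative to the array's 75th percentile (circles fasted, squares refed; blue Cont, red Drp1LiKO; bars are the measurement SE of 1 array; an open symbol is not well above background). The axis spans 3 log2 units in each panel and 6 in that of Fabp3. Lpl, Fabp5 and Fabp7 were highest in the refed Drp1LiKO liver, Fabp1 was highest in the refed Cont liver, and Fabp3 was highest in the fasted Cont liver. Scaled to the spike-ins, Fabp1, Lpl and Fabp7 were highest in the fasted Drp1LiKO liver.

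Fabp1 encodes the liver fatty acid binding protein, which is also known as a target of the nuclear receptor PPAR alpha. Its probe lies at chr6:71154906-71154965 (mm9, plus strand). The level was 9.24 in Cont and 8.62 in Drp1LiKO after fasting, and 9.60 and 8.73 after refeeding. Both Drp1LiKO livers were below both Cont livers. The genotype difference was -0.61 (SE 0.20) in fasted and -0.87 (SE 0.20) in refed livers, or 1.53-fold and 1.83-fold lower, and neither reached 2-fold. The direction after fasting depended on the scaling: it was 0.02 after quantile normalization and 0.18 with the spike-ins, and the unscaled signals were 261840 in Cont and 264922 in Drp1LiKO. After refeeding the gene was lower in Drp1LiKO (-0.87 to -0.33) under all 7 settings, which are the 75th percentile and 6 other ways of scaling, background correction or probe choice.

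The promoter window of Fabp1 is shown because it is the only one among these genes that held the motif searched for the PPAR family. RefSeq (GRCm38.p6) gave promoter windows for 7 of the 10 genes. Lpl, Fabp4 and Fabp5 had none in the table. Each window runs from 250 bases before to 50 after the start of the gene. It was searched on both strands for 2 copies of AGGNCA in the same direction with 1 base between them, the arrangement known from sites of PPAR with its partner RXR, and for TATAAA. The repeat was found in 0.381% and TATAAA in 13.6% of the 32851 windows in the table. Below are the 250 bases before the Fabp1 start, at chr6:71199629-71199878 on the plus strand, with both matches in capitals. The first capitals are the repeat, which reads on the minus strand from base -67 to base -55, and the second are TATAAA from base -30.
Fabp1: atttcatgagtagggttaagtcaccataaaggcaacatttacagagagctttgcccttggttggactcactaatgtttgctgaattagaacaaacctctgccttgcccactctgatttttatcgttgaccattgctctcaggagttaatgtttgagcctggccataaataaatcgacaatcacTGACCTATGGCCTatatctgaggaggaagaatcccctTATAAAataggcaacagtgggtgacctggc
The windows of Cd36, Slc27a2, Slc27a4, Fabp2, Fabp3 and Fabp7 held neither set of letters. A match of letters is a description of the sequence and does not show that a factor binds there.

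Fabp2 encodes the intestinal FABP, which is also made in liver. Its probe lies at chr3:122602276-122602335 (mm9, plus strand). The level was 6.68 in Cont and 6.17 in Drp1LiKO after fasting, and 6.70 and 6.14 after refeeding. The Drp1LiKO livers were lower by 0.51 (SE 0.20) and 0.56 (SE 0.20), while the refed minus fasted difference was 0.02 in Cont and -0.03 in Drp1LiKO. These refeeding differences depended on the scaling. They were -0.29 and -0.51 after quantile normalization, and -0.47 and -0.77 with the spike-ins. With the spike-ins the genotype difference was 0.28 after fasting and -0.02 after refeeding, and after quantile normalization it was -0.20 and -0.42. Of 6 intestinal epithelium markers, 0 were well above background in any liver.

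Slc27a2 encodes FATP2, a very long-chain acyl-CoA synthetase and transporter of hepatocytes. The level of its probe at chr2:126413890-126413949 (mm9, plus strand) was 7.48 in Cont and 7.09 in Drp1LiKO after fasting, and 7.52 and 6.90 after refeeding. The genotype differences were -0.40 (SE 0.20) and -0.63 (SE 0.20). Slc27a4 encodes FATP4, a transporter first known from the intestine. Its probe at chr2:29672983-29673042 (mm9, plus strand) read -1.33 in Cont and -1.75 in Drp1LiKO after fasting, and -1.70 and -2.29 after refeeding. Its genotype differences were -0.43 (SE 0.21) and -0.59 (SE 0.23). Drp1LiKO was below Cont in each feeding state for both transporters, with differences of 1.95 to 3.07 measurement SEs. Scaled to the spike-ins, both were higher in the fasted Drp1LiKO liver, by 0.39 and 0.36, and differed by -0.09 and -0.05 after refeeding. After quantile normalization Slc27a2 differed by -0.075 in fasted and -0.50 in refed livers, and Slc27a4 by -0.46 and -0.53.

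The lower levels of Fabp1, Fabp2 and Slc27a2 moved with those of other hepatocyte genes. Of the 9 hepatocyte markers on the array, 8 were lower in Drp1LiKO after fasting and 6 after refeeding, and 1 was called, Cps1 after refeeding, which was higher in Drp1LiKO (1.24). Their median difference was -0.50 after fasting and -0.42 after refeeding, against -0.10 and -0.08 over all genes well above background in both livers (15469 and 14672). After quantile normalization the marker median was 0.05 and -0.09, and with the spike-ins 0.29 and 0.12. The summed level of the markers was 11.66 in Cont and 11.17 in Drp1LiKO after fasting, and 11.91 and 11.53 after refeeding. A summed level here is the log2 of the added linear signals of a whole list. It follows the brightest probes and includes any signals not well above background. In whole liver, fewer cells of a type and less RNA per cell cannot be told apart. The marker median also changed with the scaling of the arrays. The parts of the hepatocyte share and of the scaling in these results were not tested.

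**Figure D2:**
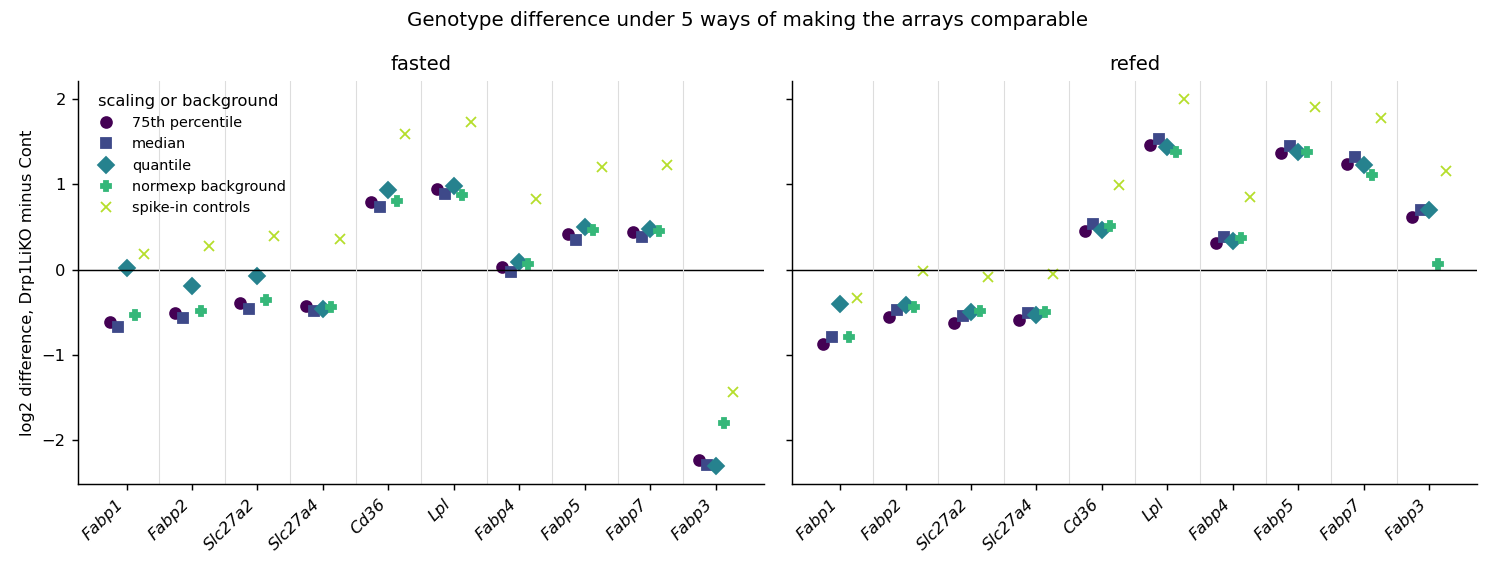
Genotype difference (log2, Drp1LiKO minus Cont) of the 10 genes in fasted (left) and refed (right) livers under 5 ways of making the arrays comparable, 1 symbol for each. Fabp3 in the refed livers is a lower bound. Spike-in scaling shifted all genes up together, so that Fabp1, Fabp2, Slc27a2 and Slc27a4 lay above 0 after fasting. Quantile normalization brought Fabp1, Slc27a2 and Fabp2 in the fasted livers to 0.02, -0.075 and -0.20. Cd36, Lpl, Fabp5 and Fabp7 were above 0 in every case.

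Cd36 encodes a scavenger receptor that takes up long-chain fatty acids and oxidized lipoproteins in adipocytes, muscle, macrophages and, in fatty liver, hepatocytes. Its probe lies at chr5:17288600-17288659 (mm9, minus strand). The level was 1.61 in Cont and 2.40 in Drp1LiKO after fasting, and 1.45 and 1.90 after refeeding. Both Drp1LiKO livers were above both Cont livers. The genotype difference was 0.80 (SE 0.20, 1.74-fold) in fasted and 0.45 (SE 0.20, 1.37-fold) in refed livers, below 2-fold in both. After refeeding the level was lower by 0.16 (SE 0.20) in Cont and by 0.50 (SE 0.20) in Drp1LiKO. The fasted genotype and Cont refeeding differences use the fasted Cont array, which carried striated muscle signals (described with Fabp3 below). The part of these signals in the Cd36 values was not tested.

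Lpl encodes the lipase that releases fatty acids from triglyceride-rich lipoproteins. The adult liver is known to make little of it in hepatocytes, and macrophages are one of its sources. The brighter of its 2 probes, at chr8:71430267-71430326 (mm9, plus strand), had a level of -0.06 in Cont and 0.89 in Drp1LiKO after fasting, and of 0.16 and 1.62 after refeeding. Its genotype difference was 0.94 (SE 0.21, 1.92-fold) in fasted and 1.46 (SE 0.21, 2.75-fold) in refed livers, and the second was called. The other probe, at chr8:71425050-71425109, read -1.83 and -0.78 after fasting and -1.73 and -0.34 after refeeding. Its differences were 1.05 and 1.39, so after fasting the probes fell on either side of 2-fold. The longest run of bases the probes share is 6, so they are separate readings of the transcript. The fasted genotype difference of Lpl also uses the fasted Cont array, and the part of its muscle signals was not tested.

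Fabp4, Fabp5 and Fabp7 are the adipocyte and macrophage, the epidermal and the brain FABP, and Fabp4 and Fabp5 are both made by macrophages. Fabp4 (chr3:10204452-10204511, mm9, minus strand) had levels of 1.37 in Cont and 1.40 in Drp1LiKO after fasting, and of 1.54 and 1.84 after refeeding. Its genotype differences were 0.03 (SE 0.20) and 0.31 (SE 0.20), both within 1.51 measurement SEs of 0. The sign after fasting turned with scaling to the median (-0.03).

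Fabp5 (chr3:10016185-10016244, mm9, plus strand) had levels of 1.41 in Cont and 1.82 in Drp1LiKO after fasting, and of 1.51 and 2.88 after refeeding. The refed Drp1LiKO liver stood above the other 3. The genotype difference was 0.41 (SE 0.20) in fasted and 1.37 (SE 0.20, 2.59-fold) in refed livers, where it was called. The refed difference exceeded the fasted one by 0.96 (SE 0.29), or 3.32 measurement SEs.

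Fabp7 (chr10:57508039-57508098, mm9, plus strand) had levels of 0.78 in Cont and 1.22 in Drp1LiKO after fasting, and of 0.25 and 1.48 after refeeding. The genotype difference was 0.44 (SE 0.20) in fasted and 1.24 (SE 0.21, 2.36-fold) in refed livers, where it was called. Refeeding went with a lower level in Cont (-0.53, SE 0.21) and a slightly higher one in Drp1LiKO (0.27, SE 0.20). Scaled to the spike-ins the refeeding differences were -1.02 and -0.47. Of 6 neural and glial markers, 4 had a signal well above background in some liver and 2 in all 4. The glial marker Gfap had none in any liver.

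Most macrophage markers were, like Lpl, Fabp5 and Fabp7, higher in Drp1LiKO. Of 12 Kupffer cell and macrophage markers, 9 were higher in Drp1LiKO after fasting and 5 of them were called, and none was called lower. After refeeding 10 of the 11 well above background in both livers were higher, and 6 of 12 were called higher. Over all genes 4.45% and 4.06% were called higher. The list's median was 0.45 and 0.83, beside -0.10 and -0.08 over all genes. Other lists also had positive medians. That of stellate cell markers was 0.82 after fasting and -0.02 after refeeding. That of cholangiocyte markers was 1.26 over 3 genes and 0.73 over 2, and that of neutrophil markers -1.02 and 0.73. Among the macrophage markers Trem2, a receptor of lipid-associated macrophages, differed by 2.45 and 1.65, Marco by 1.67 and 1.61 and Lyz2 by 1.39 and 1.54. Of these 3, only Lyz2 differed more after refeeding, as Lpl, Fabp5 and Fabp7 did, but by little. Its highest value over the 7 settings was 2.18 after fasting and 2.07 after refeeding. The directions of Trem2, Marco and Lyz2 were the same under all 7 settings. The summed level of the macrophage list was 6.77 in Cont and 6.99 in Drp1LiKO after fasting, and 6.91 and 7.71 after refeeding. Among the white adipocyte markers, Adipoq, Lep, Plin1 and Retn had no signal well above background in any liver, and 5 of 9 markers had one in some liver. Cfd, the adipokine adipsin, was lower in Drp1LiKO (-5.05 after fasting and -6.27 after refeeding), as was Car3, a carbonic anhydrase abundant in adipocytes and also made in liver (-1.76 and -1.56). The median over the 4 markers of this list above background in both livers was -0.88 and -1.14, and of the 5 tested 2 were called lower and 0 higher in each feeding state. After fasting 1 of the 4 was higher in Drp1LiKO, Pck1, by 0.42 to 1.27 over the 7 settings. After refeeding Pck1 ranged from -0.50 to 0.04. Lipe, also on this list, differed by -0.01 and -0.71. Cidea, a lipid droplet protein on the brown adipocyte list, differed by -3.10 and -6.10. The part of macrophage or adipocyte content in these values was not tested.

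Fabp3 encodes the heart and skeletal muscle FABP. The first 30 bases of its 2 probes are shown because the probes are not separate readings: they share a run of 51 of their 60 bases, of which 21 are printed here in capitals.
Fabp3 second probe: tttatttttTAAAACTGTATCCAAAGGGTG
Fabp3 probe used: TAAAACTGTATCCAAAGGGTGctccaaggt
The probe used, for which the files give no genome position, read 0.42 in Cont and -1.81 in Drp1LiKO after fasting, and -2.83 in Drp1LiKO after refeeding. In the refed Cont liver it was not well above background (-3.88 as measured). Fabp3 was thus 4.69-fold lower in Drp1LiKO after fasting (-2.23, SE 0.21), and after refeeding at least 1.53-fold higher (0.62), a bound that was 0.06 after normexp background correction. Between fasting and refeeding it was at least 14.5-fold lower in Cont and 2.02-fold lower in Drp1LiKO (-1.02, SE 0.24). After normexp background correction these refeeding differences were -2.40, a bound against -3.86, and -0.54, which was not called. The second probe, at chr4:129992643-129992702 (mm9, plus strand), read 0.16, -2.16 and -2.60 on the same 3 arrays and was not well above background in the refed Cont liver either.

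The fasted Cont liver, where Fabp3 was highest, also carried signals of striated muscle. Of 8 muscle markers, 7 were well above background on that array and 2 on each of the other 3. Acta1, the skeletal muscle actin, read 0.16 there and between -6.63 and -4.28 on the other arrays, where it was not well above background. Tnni2, a fast skeletal troponin, read 1.60 there and -2.56 to -2.30 elsewhere. Mb, myoglobin, read -0.08 there and -6.03 to -2.80 elsewhere. The summed level of the list was 2.74 in the fasted Cont liver, -1.63 in the fasted Drp1LiKO liver, and -0.88 (Cont) and -1.58 (Drp1LiKO) after refeeding. Cox8b, a brown fat and muscle subunit of cytochrome oxidase, was also higher in the fasted Cont liver (0.42) than in fasted Drp1LiKO (-3.65), and was at -1.31 in refed Cont. Each Fabp3 comparison that uses the fasted Cont array therefore comes with a muscle signal. Ucp1, on the brown adipocyte list, was well above background only in the fasted Cont liver (-2.85). Of the 5 markers of that list above background in both Cont livers, 3 were lower and 2 higher after refeeding. The fasted Cont array also enters the fasted genotype and Cont refeeding differences of the other genes, including Cd36, Lpl and Fabp4. The part of the muscle and brown adipocyte signals in all these differences was not tested. The refed genotype differences do not use the fasted Cont array. Between the refed livers 1 of 3 muscle markers with a signal above background was called, Mb, which was lower in Drp1LiKO.

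**Figure D3:**
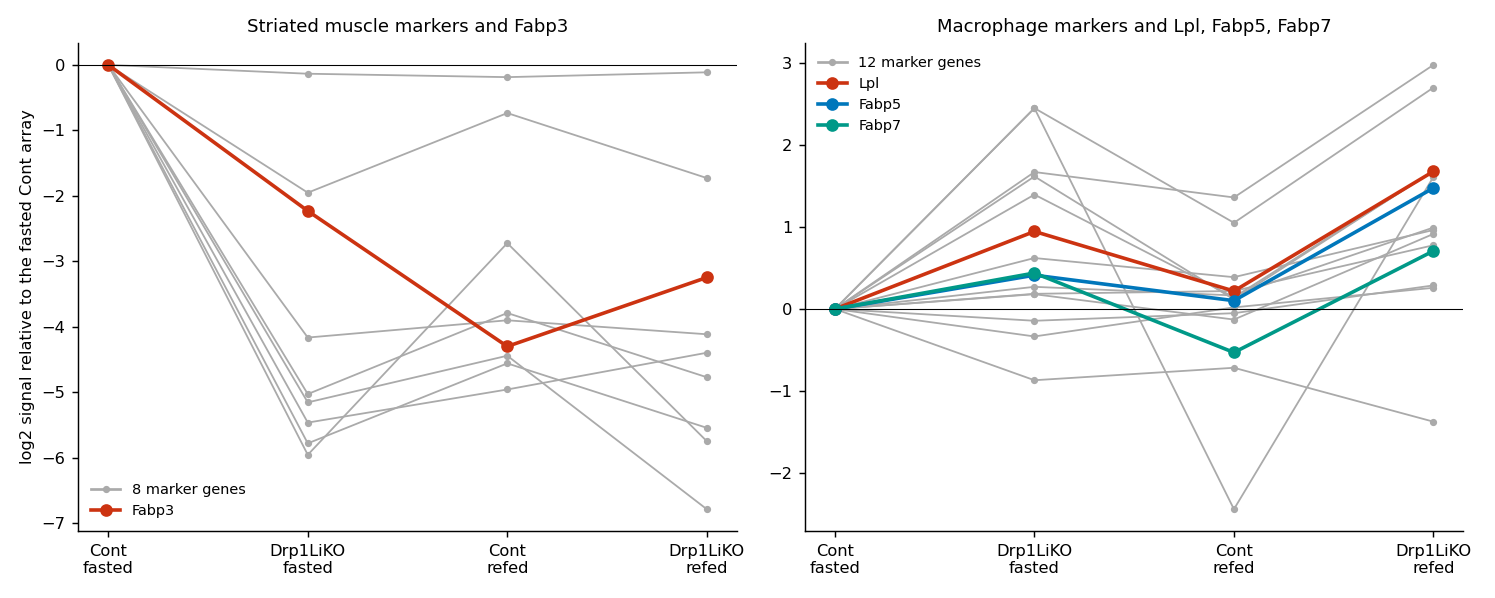
Log2 signals relative to the fasted Cont array for 8 striated muscle markers with Fabp3 (left) and for 12 Kupffer cell and macrophage markers with Lpl, Fabp5 and Fabp7 (right), each line joining the 4 values of 1 gene in the order fasted Cont, fasted Drp1LiKO, refed Cont, refed Drp1LiKO. Signals not well above background are plotted as measured. Most muscle markers and Fabp3 lay far below their fasted Cont value on the other 3 arrays, and most macrophage markers were higher in Drp1LiKO.

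The calls among the 10 genes between genotypes are given beside those over all genes. After fasting 0 of 10 were called higher and 1 of 10, Fabp3, lower, beside 4.45% higher and 4.83% lower of the 18040 genes tested. After refeeding 3 of 10 were called higher (Lpl, Fabp5 and Fabp7) and 0 lower, beside 4.06% higher and 6.28% lower of 17446. The median difference of the genes well above background in both livers was -0.18 over 10 after fasting and 0.31 over 9 after refeeding, beside the medians of all genes of -0.10 and -0.08. The genotype difference was larger after refeeding than after fasting by 0.80 (SE 0.29) for Fabp7 and by 0.51 (SE 0.29) for Lpl, and smaller by 0.34 (SE 0.29) for Cd36. For Fabp1, Fabp2, Slc27a2 and Slc27a4 the 2 differences lay within 0.89 measurement SEs of each other. No model with replicates tested these interactions, because 4 arrays leave no residual degree of freedom for one. Each interaction also uses the fasted Cont array, and the part of its muscle signals was not tested.

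**Figure D4:**
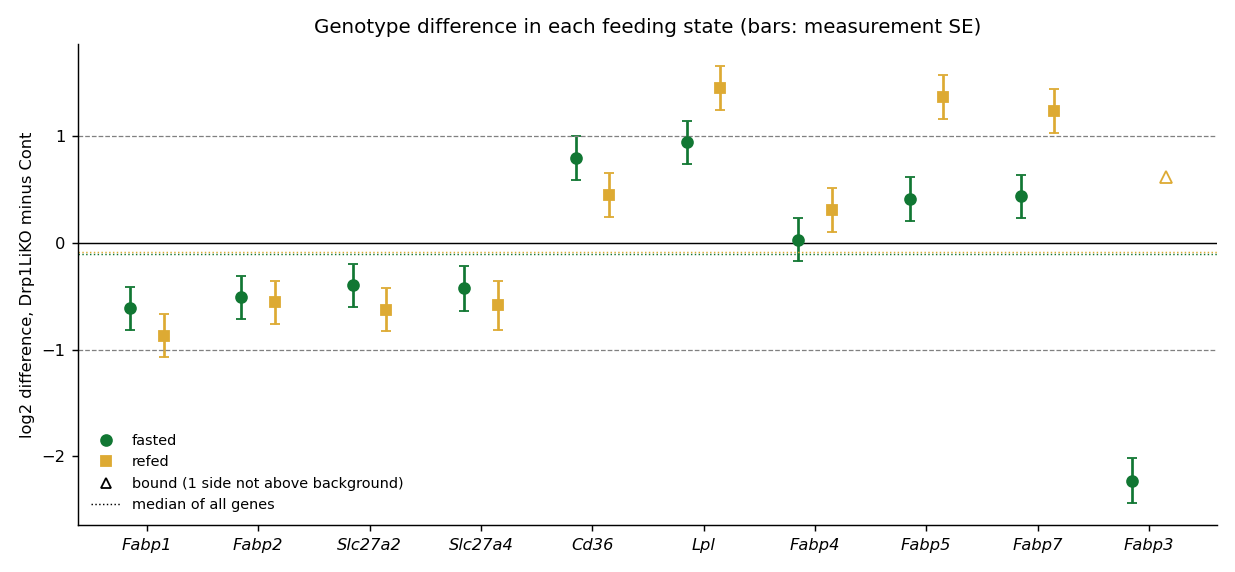
Genotype difference (log2, Drp1LiKO minus Cont) of each gene in fasted (circles) and refed (squares) livers, with the measurement SE as bars. Dashed lines mark 2-fold, dotted lines the median of all genes, and the open triangle a lower bound. Lpl, Fabp5 and Fabp7 were above the 2-fold line after refeeding, and Fabp3 was below it after fasting. Under spike-in scaling the fasted values of Fabp1, Fabp2, Slc27a2 and Slc27a4, and under quantile normalization that of Fabp1, were above 0.

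Between refed and fasted livers Fabp3 and Fabp5 were the only genes of the 10 called. In Cont 0 of 10 were called higher and 1, Fabp3, lower, beside 3.60% and 3.56% of 16437 genes. In Drp1LiKO 1 was called higher, Fabp5 at 1.06 (SE 0.20, 2.09-fold), and 1 lower, Fabp3, beside 4.56% and 4.72% of 18329. Both Drp1LiKO calls lay close to 2-fold: under quantile normalization Fabp5 differed by 0.92 and Fabp3 by -0.90, and neither was called. With the spike-ins Fabp5 differed by 0.32 and was not called. Lpl was higher after refeeding by 0.22 (SE 0.21) in Cont and 0.73 (SE 0.20) in Drp1LiKO, and its differences with the spike-ins were -0.27 and -0.01. The 2 refeeding comparisons share no array with each other, but each shares 1 array with each genotype comparison.

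**Figure D5:**
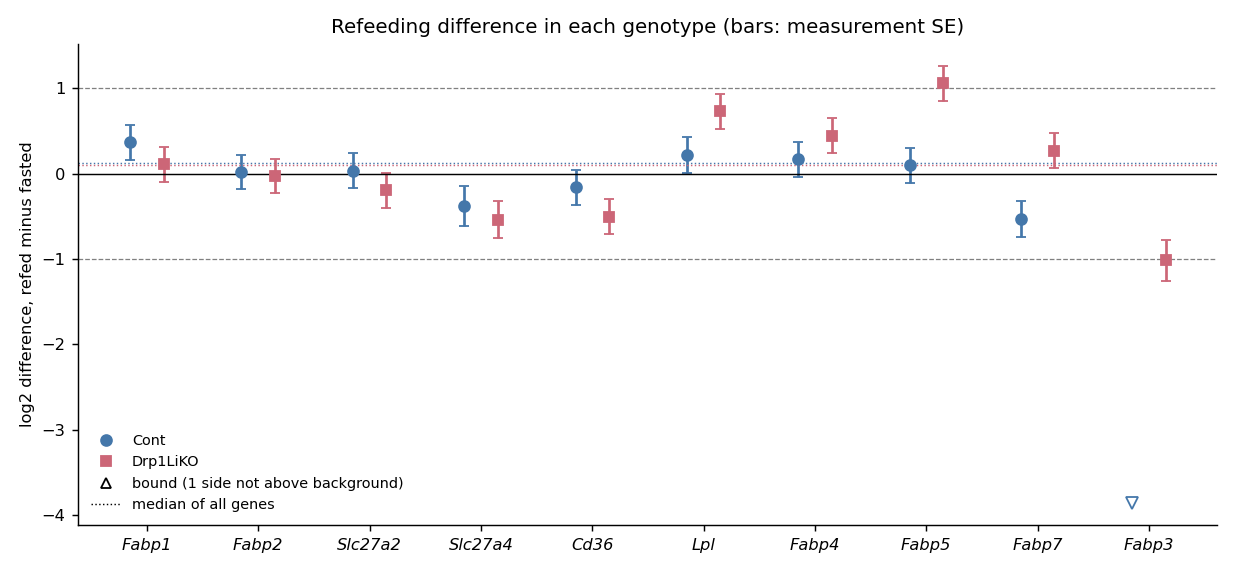
Refeeding difference (log2, refed minus fasted) of each gene in Cont (circles) and Drp1LiKO (squares) livers, with the measurement SE as bars, dashed lines at 2-fold and dotted lines at the median of all genes. The open triangle is the bound for Fabp3 in Cont, which was at least 3.86 lower. Apart from Fabp3, only Fabp5 in Drp1LiKO passed a 2-fold line. Scaled to the spike-ins, the 10 genes were all lower after refeeding in Cont and 9 of 10 were lower in Drp1LiKO.

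The only test available was a limma model over all 4 arrays with genotype and feeding state, which has 1 residual degree of freedom and treats any interaction as error. At an adjusted p under 0.05 it called 0 of 16744 genes for genotype (0%) and 0 for feeding state (0%), while 4750 and 4573 had an unadjusted p under 0.05. Among the 10 genes the smallest limma adjusted p for genotype was that of Lpl (1.20, SE 0.19, adjusted p = 0.0993; 0.0298 to 0.299 for the lowest of the 10 over the alternatives), followed by Fabp1 (-0.74, SE 0.15, adjusted p = 0.11). Fabp3 had the largest (adjusted p = 0.685). For feeding state the limma adjusted p ranged from 0.172 for Slc27a4 to 0.988 for Fabp2. Lpl was called for genotype at an adjusted p of 0.0386 after normexp background correction, 0.0342 among genes above background on all 4 arrays, 0.0407 with an intensity trend and 0.0298 with the spike-ins. Fabp1 was called in the second of these (adjusted p = 0.0484), and Cd36, Fabp4, Fabp5 and Fabp7 in the last. Over all genes these settings called 819 of 16744, 1319 of 14447, 984 of 16744 and 5394 of 16744 for genotype, in the same order.

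Of a wider list of 55 genes around these steps, 45 were detected well above background in some liver. After fasting 3 of 44 tested were called higher in Drp1LiKO and 1 lower, beside 4.45% and 4.83% of all genes, with a median of -0.34 beside -0.10 over all genes. After refeeding 2 of 45 were called higher and 6 lower, beside 4.06% and 6.28%, with a median of -0.56 beside -0.08. With the spike-ins these medians were 0.45 and -0.02. Refeeding called 1 of 44 higher and 0 lower in Cont, beside 3.60% and 3.56% of all genes, and 2 of 45 higher and 2 lower in Drp1LiKO, beside 4.56% and 4.72%.

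Among genes that bind or activate fatty acids, Acsl4, an acyl-CoA synthetase with a preference for arachidonic acid, was higher in Drp1LiKO in both feeding states (1.70 and 1.57). Acsl1, the main hepatic long-chain acyl-CoA synthetase, was lower by 0.61 after fasting (0.18 with the spike-ins) and by 1.58 after refeeding, where it was called. Of the other transporters, Slc27a3 was higher by 1.03 after fasting, from a signal near background. Slc27a5, the FATP of bile acid conjugation in liver, differed by -0.68 and -0.69 and was not called. Its fasted difference ran from -0.74 to 0.11 over the 7 settings and was positive in 1.

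Among genes that control LPL, Angptl8, an LPL inhibitor known to rise with feeding, was higher after refeeding by 3.11 in Cont and 3.56 in Drp1LiKO. Angptl4, an LPL inhibitor known from fasting and PPAR activation, was lower after refeeding by 0.69 in Cont and by 2.16 in Drp1LiKO, and after refeeding it was lower in Drp1LiKO than in Cont by 1.60. Apoa5, an activator of lipolysis by LPL, was lower in Drp1LiKO after refeeding by 1.38. Mfsd2a, a transporter of lysophospholipid-bound fatty acids, differed by 0.27 after fasting and by -2.55 after refeeding. The hepatic lipase gene Lipc was lower in Drp1LiKO than in Cont after refeeding, by 1.11. Ppara, the nuclear receptor PPAR alpha, was lower in Drp1LiKO in both feeding states, by 1.05 and 1.39 (-0.26 and -0.85 with the spike-ins). The called directions of the genes named from this list were the same under all 7 settings, but not every call held. With the spike-ins Lipc (-0.57) and Apoa5 (-0.84) after refeeding were under 2-fold, as was Ppara in both feeding states, and the lowest value of Slc27a3 after fasting over the settings was 0.32.

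For the genes that varied by at least 1 log2 unit and were well above background on all 4 arrays, the most similar of 14438 other such genes were found by Euclidean distance between levels centred on their mean. For Lpl these were Lrrc14b (distance 0.07), Cd72 (0.17) and Bcl2a1c (0.17). For Fabp5 they were B430306N03Rik (0.04), NAP114472-1 (0.11), a probe name without a gene symbol, and Socs1 (0.11). For Fabp7 they were Msr1 (0.14), Trim34a (0.15) and Tent5a (0.16). The distances rest on 4 points per gene and describe only these arrays.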

How the data were processed

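Livers of 4 groups were measured with 1 array each on 1 slide. The files hold the authors' scanner output of Agilent Feature Extraction (version 10.7.1.1 per the file headers, 9.5.1.1 in the submitters' processing notes). The intensity used was the deposited processed signal, linear and background-subtracted within each array. The authors also deposited normalized intensity values with a median of 39.6 in each column, which equal a quantile normalization of the geometric mean of each probe's spots. The labels and the study's methods name different array designs and RNA kits, and the files carry the labels' design.

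Log2 signals were set relative to the 75th percentile of the array. Control spots and spots marked as outliers were left out, which removed 37 of 39429 probes. Of 28358 probes with a RefSeq accession, 26727 matched a symbol in GRCm38.p6. Probe positions are those of mm9 in the files. A gene was read from its probe detected on the most arrays, then the brightest. Between 48.7% and 58.2% of gene spots were well above background and none was saturated, and the number of arrays limits the precision. The bound for a dim signal was the higher of its own value and the array's lowest value well above background.

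The model was fitted with limma 3.58.1 (lmFit, eBayes, Benjamini-Hochberg) in R 4.3.3 on genes detected on at least 2 arrays, and tested on simulated data. Alternatives were median scaling, quantile normalization, normexp (offset 50), the authors' values, the median over probes, the measured value of a dim signal, other filters, a 1.5-fold threshold, an intensity trend, 1 factor left out and, added after the data were seen, spike-in scaling. Named were all 10 genes, list genes called in any comparison (at most 4 a list, some of which are not reported here), at most 3 markers a list where it moved with a gene, the 3 most similar genes of each varying gene, and Dnm1l. Gfap, Cps1, Slc27a5, Cfd, Car3, Pck1, Lipe, Cidea, Ucp1 and the 4 undetected white adipocyte markers were added after their values were seen. The genes and lists were chosen with earlier results of these data known.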

Additional observations from a re-analysis of the deposited data

Results flagged for a closer look

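The genotype difference of Fabp3 had opposite signs in the feeding states, at -2.23 (SE 0.21) after fasting and at least 0.62 higher in Drp1LiKO after refeeding (1.05 as measured, SE 0.53). The refed bound lay 1.17 measurement SEs from 0 and was 0.06 after normexp background correction. The fasted difference uses the fasted Cont array, which carried striated muscle signals. The summed level of the muscle markers was 2.74 there and -1.63 in fasted Drp1LiKO, and its part in the difference was not tested. Each group is 1 array, and the difference between the feeding states was not tested.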

How the results depend on the processing

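No paired analysis was possible because each group has 1 array and no group has a second replicate number. Of the 280 alternative values of the differences of the 10 genes, 51 moved outside the 95% measurement interval and none turned a called direction. With spike-in scaling 5 of the 10 were called after fasting (26.8% of all genes tested) and 2 between refed and fasted Cont livers (12.5%). Among genes above background on all 4 arrays 0 were called in either of these comparisons (5.94% and 3.92% of all genes), because Fabp3 leaves that set. Between refed and fasted Drp1LiKO livers 1 was called (5.90%). At 1.5-fold 4 were called after fasting (23.5% of all genes) and 7 after refeeding (25.4%). The calls between refed and fasted Drp1LiKO livers numbered 1 with median scaling (9.84% of all genes) and 1 with the median over probes (9.03%). They numbered 0 with quantile normalization (9.18%), normexp background (4.55%) or the authors' values (9.19%). With median scaling 59.1% of all genes called in that comparison were higher. For genotype limma called 174 genes with median scaling, 819 with normexp background, 5394 with spike-in scaling, 1319 among genes above background on all 4 arrays, 984 with an intensity trend and 1 without feeding state. For feeding state it called 21 with normexp background and 31 among genes above background on all 4 arrays. The cause of these shifts was not tested. Among the 10, only Fabp3 had a signal that was not well above background, in the refed Cont liver. Slc27a4 was also dim. Its refeeding differences of -0.38 in Cont and -0.54 in Drp1LiKO were -0.21 and -0.28 after normexp background correction.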
